A study of Mus musculus with 16 samples.

Results

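The comparison described here is the difference between 2 responses: what rosiglitazone did to each gene in the epididymal white fat of FGF21 KO mice, minus what it did in wild-type (WT) mice. All probes detected above background on at least 4 of the 16 arrays entered, which were 13759 of the 25697 probes on the array. A group held 4 arrays, so a probe could enter through the 1 group where it was high. The class of such a probe rests in part on that filter. On all 16 arrays 10177 probes were detected. The 13759 probes stood for 9543 of the 16593 named genes on the array. A probe was counted as responding in a genotype where both rosiglitazone pools lay above, or both below, the vehicle pools and the means differed by at least 0.5 on the log2 scale, a fold of 1.41. By that rule the response was lost in FGF21 KO fat for 961 probes (847 genes), gained for 357 (310 genes), shared for 85 (80 genes) and opposite for 43 (40 genes). A further 550 responded in 1 genotype with a difference of responses under 0.5, and 11763 responded in neither.

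There were 4 groups: FGF21 KO mice given rosiglitazone, FGF21 KO mice given vehicle, WT mice given rosiglitazone and WT mice given vehicle. All were of the mixed c57b6/sv129 background, 4 to 5 months old and obese from 10 weeks of high fat diet, and the treated mice received rosiglitazone at 10 mg/kg for the last 2 weeks. Each group held 2 pools of RNA from 2 mice, and each pool was hybridised to 2 Illumina MouseRef-8 bead arrays, whose values were averaged, so n = 2 pools per group throughout. How far KO and WT mice were littermates is not given in the sources used here, and a pool average hides the spread between its mice.

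Rosiglitazone is a thiazolidinedione that activates PPARG, the nuclear receptor that switches on genes of fat storage and fatty acid uptake in adipocytes. FGF21, a hormone of hepatic and adipose origin, signals through an FGF receptor together with the co-receptor beta-klotho, and fat cells induce it through PPARG. The question set by the study's title is whether PPARG activity and the effects of thiazolidinediones depend on FGF21, and the difference of responses addresses it gene by gene.

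Detection of the Fgf21 probe reached 1 array of 4 per KO group, against all 4 per WT group. Its signals were 129 to 168 in KO with rosiglitazone, 129 to 155 in KO with vehicle, 288 to 560 in WT with rosiglitazone and 319 to 358 in WT with vehicle. The adipocyte genes Adipoq (adiponectin) and Cidec (a lipid droplet protein) lay near the top of the scale in all 8 pools, at 14.99 to 15.29 and 15.26 to 15.57. Replicate pools were not equally close. The spread between pools (SD, log2, as the root mean square over probes) was 0.20 in KO with rosiglitazone and 0.28 in KO with vehicle. It was 0.48 in WT with rosiglitazone and 0.23 in WT with vehicle. WT rosiglitazone pool 1 carried more smooth muscle and epithelial transcripts than the other pools, and KO vehicle pool 2 carried liver transcripts. Each signal averaged 39.4 to 40.7 beads on KO arrays and 36.0 to 38.9 on WT arrays, and the part of that difference in the results was not tested.

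No single probe passed the test of the difference of responses. In limma's fit over all 8 pools, 0 of 13759 probes had an adjusted p of 0.05 or less (0% called), and the lowest adjusted p was 0.502. At an unadjusted p under 0.05 there were 681 probes (4.95%), of which 314 were more positive in KO (2.28%) and 367 more negative (2.67%). With median scaling in place of quantile normalization the median difference over all probes was -0.11, against -0.01, and 29.5% of the probes at that limit were positive, against 46.1%. All gene values below are therefore measurements with their errors, not calls. The responses of the 2 genotypes themselves gave 0 probes past the threshold each, with 775 probes (5.63%) in KO and 1143 (8.31%) in WT at an unadjusted p under 0.05.

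By the rule above, few probes responded in both genotypes. Of the 727 probes that responded in KO, 11.7% were shared and 5.91% were opposite, together 17.6%. Over all 13759 probes tested, 1397 responded in WT. Of these 1397, 6.08% were shared and 3.08% opposite, together 9.16%, where 727 of all 13759 responded in KO. Both overlaps were thus above the share over all probes. Over all probes the 2 responses had the same sign for 52.6%, with a Pearson r of 0.04 and a Spearman rho of 0.07 across probes, which are not independent replicates. The lost class was 6.98% of all probes tested and the gained class 2.59%, the shared class 0.618% and the opposite class 0.313%, and these counts moved with single pools. Lost probes were 348 with a higher level in drug-treated WT fat (2.53%) and 613 with a lower one (4.46%). Of the gained probes 162 were higher in drug-treated KO fat (1.18%) and 195 lower (1.42%). Shared probes were 48 higher with the drug (0.349%) and 37 lower (0.269%), and opposite probes were 15 higher in KO (0.109%) and 28 lower in KO (0.204%). Without WT rosiglitazone replicate 1 the lost class held 512 probes, and 26.1% of the 961 were among them. Without WT rosiglitazone replicate 2 it held 3239 probes, including 95.1% of the 961, and 1702 probes passed an adjusted p of 0.05 for the difference. The gained class held 597 probes without KO vehicle replicate 1 and 718 without KO rosiglitazone replicate 1. The limit of 0.5 also cut through a continuum: 137 lost probes lay within 0.1 above it and 121 probes within 0.1 below, and for gained probes these counts were 64 and 83.

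**Figure D1:**
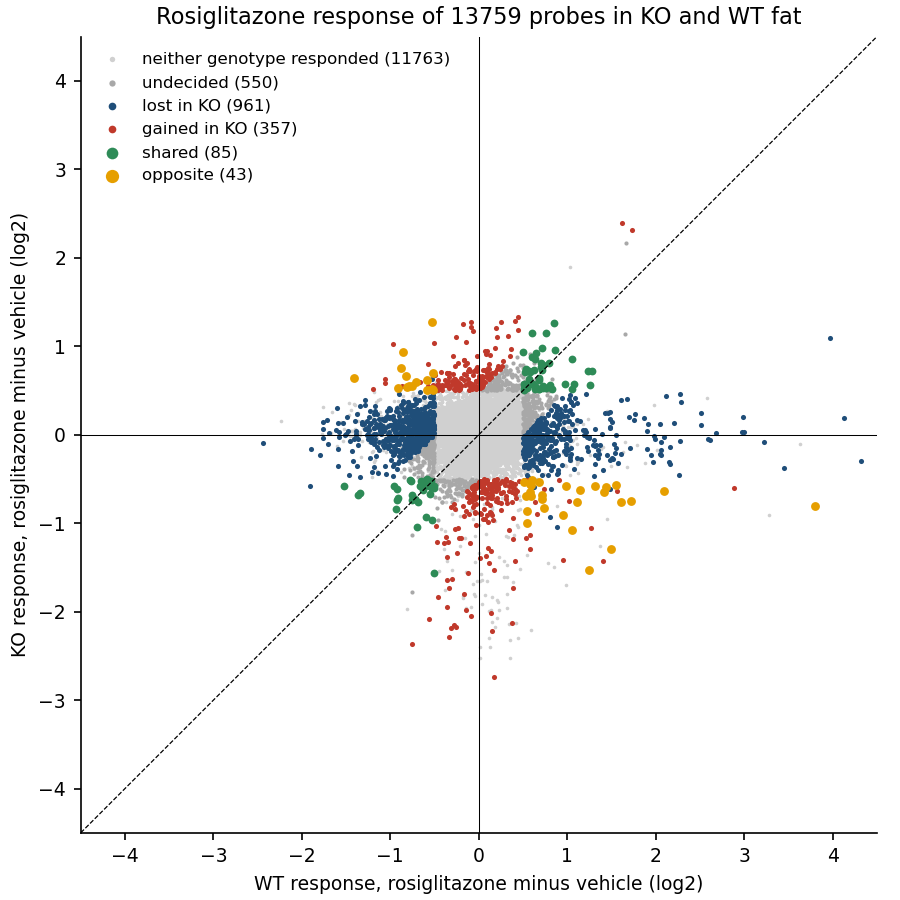
Rosiglitazone response in FGF21 KO fat (vertical axis, log2 rosiglitazone minus vehicle) against the response in WT fat (horizontal axis, log2) for 13759 probes, coloured by class, with equality of the responses as a dashed line. The 961 lost probes spread along the horizontal axis, the 357 gained probes along the vertical one, and 85 lie in the shared corners.

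Of the 22 interferon response genes tested, 10 had lost responses and were lower with rosiglitazone in WT fat. In KO fat Igtp, Irgm2, Gbp3 and Ifi47, which are among these, lay below both WT vehicle pools, with vehicle as well as with the drug, as did Gbp10 and Gvin1, which are not on that list. Described next are the immunity-related GTPases Igtp and Irgm2 and the guanylate-binding proteins Gbp3 and Gbp10, which interferon induces and which act against pathogens inside cells. The promoters of 3 of these and of the related Irgm1 are shown first, because the interferon-stimulated response element is the sequence through which such genes are known to be switched on. They are RefSeq sequences of the GRCm38.p6 build, read 5′ to 3′ on the strand of the gene, and end at or before the transcription start. Capitals mark the motif GAAA, any 2 bases, GAAA, or its reverse complement (both strands were searched), and longer runs of capitals are overlapping matches.
Igtp (chr11:58199487-58199555, + strand): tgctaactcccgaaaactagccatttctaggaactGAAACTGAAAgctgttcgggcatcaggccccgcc
Irgm2 (chr11:58214878-58214957, + strand): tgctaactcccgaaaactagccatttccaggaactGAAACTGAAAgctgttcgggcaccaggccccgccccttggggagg
Gbp3 (chr3:142559964-142560043, + strand): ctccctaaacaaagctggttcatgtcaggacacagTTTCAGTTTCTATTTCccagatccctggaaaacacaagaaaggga
Irgm1 (chr11:48871421-48871485, - strand): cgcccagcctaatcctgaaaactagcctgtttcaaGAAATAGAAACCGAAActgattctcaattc
The first match begins 34 bases before the start in Igtp, 64 in Irgm2, 45 in Gbp3 and 30 in Irgm1.

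The motif was in the promoter window (250 bases before to 50 after the start) of 291 of 7712 tested genes with a window (3.77%). Among 20 interferon response genes with a window it was in 11, which were 6 of 9 lost genes and 5 of 11 others. The motif TTCNNNGAA (the gamma-activated site, both strands) was in 663 of the 7712 (8.6%), in 3 of the 9 lost genes and in 3 of the 11 others. A match is a run of letters and no shown binding site, and Irgm1, whose responses did not differ by more than the error, carried the motif too.

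Igtp stood at 8.30 and 8.36 (log2 signal) in the KO rosiglitazone pools and at 8.67 and 8.18 in the KO vehicle pools, against 8.16 and 8.05 in WT with rosiglitazone and 10.42 and 10.68 in WT with vehicle. Both WT vehicle pools lay above the other 6, of which the WT rosiglitazone pools were the lowest. The response was -0.10 in KO and -2.44 in WT (5.43-fold lower), a difference of 2.35 (SE 0.27, 95% interval 1.690 to 3.0003, limma adjusted p = 0.502).

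Irgm2 followed the same course, with 8.96 and 8.76 in KO rosiglitazone, 9.29 and 8.76 in KO vehicle, 9.10 and 8.68 in WT rosiglitazone and 10.35 and 10.60 in WT vehicle. Its difference of responses was 1.42 (SE 0.33, adjusted p = 0.827). Irgm1, of the same GTPase family, had responses of 0.16 in KO and 0.15 in WT, a difference of 0.01 with a 95% interval of -0.47 to 0.48, which was -0.11 with median scaling. Irgm1 and Irgm2 were picked for the text after their values were seen.

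Gbp3 had 9.04 in both KO rosiglitazone pools and 8.93 and 8.68 in KO vehicle, against 8.20 and 8.71 in WT rosiglitazone and 9.81 and 9.86 in WT vehicle. The difference of responses was 1.61 (SE 0.27, adjusted p = 0.746), and 1.42 by a second probe. Here drug-treated KO fat stood 0.58 above drug-treated WT fat, whereas for Igtp that gap was 0.22. Gbp10 had the narrowest error of the group: 6.37 and 6.48 in KO rosiglitazone, 6.44 and 6.30 in KO vehicle, 5.68 and 5.72 in WT rosiglitazone and 6.95 and 6.92 in WT vehicle. Its difference was 1.30 (SE 0.18, adjusted p = 0.502), and all 4 KO pools lay between the WT groups. Gbp10 was detected on 2 of 4 arrays in WT with rosiglitazone.

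Ifi47, another interferon-gamma-induced GTPase, differed by 1.68 (SE 0.31), and the very large GTPase Gvin1 by 1.56 (SE 0.27). Both were lower with the drug in WT, by -1.28 and -1.79, and had KO responses of 0.40 and -0.23. For Gbp2 the probe in the lost class differed by 1.89, but the brighter Gbp2 probe by 0.13, so the gene's own response is not settled.

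Over the 22 interferon response genes tested, 10 were lost with a lower level in drug-treated WT fat, against 294 of all 9543 genes (3.08%). Their median difference of responses was 0.53, against -0.04 over all genes, and 19 of 22 were positive, against 44.3% of all genes. At an unadjusted p under 0.05, 7 were positive and 0 negative, against 1.90% and 2.89% of all genes. With vehicle, 19 of the 22 were lower in KO than in WT, with a median gap of -0.43, against 51.6% of all genes. With rosiglitazone the median gap between genotypes was 0.05. Over the 613 lost probes that were lower with the drug in WT, the median gap was -0.12 with vehicle and 0.70 with rosiglitazone. Of these probes 12.6% had a larger gap with vehicle than with rosiglitazone, against 32.3% of all 13759 probes tested. That share was not counted for the interferon list. The vehicle pools of each genotype enter both the gap and the response, so these counts describe the same values from another side. The 22 macrophage markers had a median difference of 0.18, and the 8 T and B lymphocyte markers of -0.37. Their part in the interferon result was not tested.

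Cxcl9, the interferon-gamma-induced chemokine that draws T cells, was opposite rather than lost. It stood at 11.005 and 10.858 in KO rosiglitazone and 10.16 and 10.19 in KO vehicle, against 10.63 and 10.11 in WT rosiglitazone and 11.04 and 11.46 in WT vehicle. Responses were 0.75 in KO and -0.88 in WT, a difference of 1.63 (SE 0.31, adjusted p = 0.811). Ccl8, a monocyte chemoattractant, differed by 1.81 (SE 0.57), with responses of 1.28 in KO and -0.53 in WT. Its WT vehicle pools were unequal, at 8.445 and 9.479, against 8.422 and 8.440 in WT rosiglitazone. The opposite class of Ccl8 thus rests on a very small margin in WT. Of the 18 inflammatory and acute phase genes, 4 were lost with a lower level in drug-treated WT fat (3.08% of all genes) and the median difference was 0.28. A further 3 were Lcn2, gained with a lower level in drug-treated KO fat, Il1b, shared with a lower level, and Ccl8, opposite. Of all 9543 genes, these classes held 147, 29 and 36. The lost ones included Saa3, an acute phase protein made in fat, with responses of -0.58 in KO and -1.91 in WT, and the monocyte chemokine Ccl2 at 0.17 and -0.56. The KO vehicle pools of Saa3 were unequal, at 10.58 and 9.02, and the authors' deposited table called Saa3 lower with rosiglitazone in both genotypes, with ratios of 0.618 in KO and 0.374 in WT.

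The class of Ifit2, an antiviral protein induced by type I interferon, depended on the probe. By its brighter probe it was lower with rosiglitazone in both genotypes and shared. That probe stood at 7.65 and 7.68 in KO rosiglitazone and 8.21 and 8.13 in KO vehicle, against 7.92 and 8.14 in WT rosiglitazone and 8.61 in both WT vehicle pools. Its difference of responses was 0.08 (95% interval -0.37 to 0.52). The second Ifit2 probe was lost, with responses of -0.11 in KO and -0.62 in WT and a difference of 0.51.

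**Figure D2:**
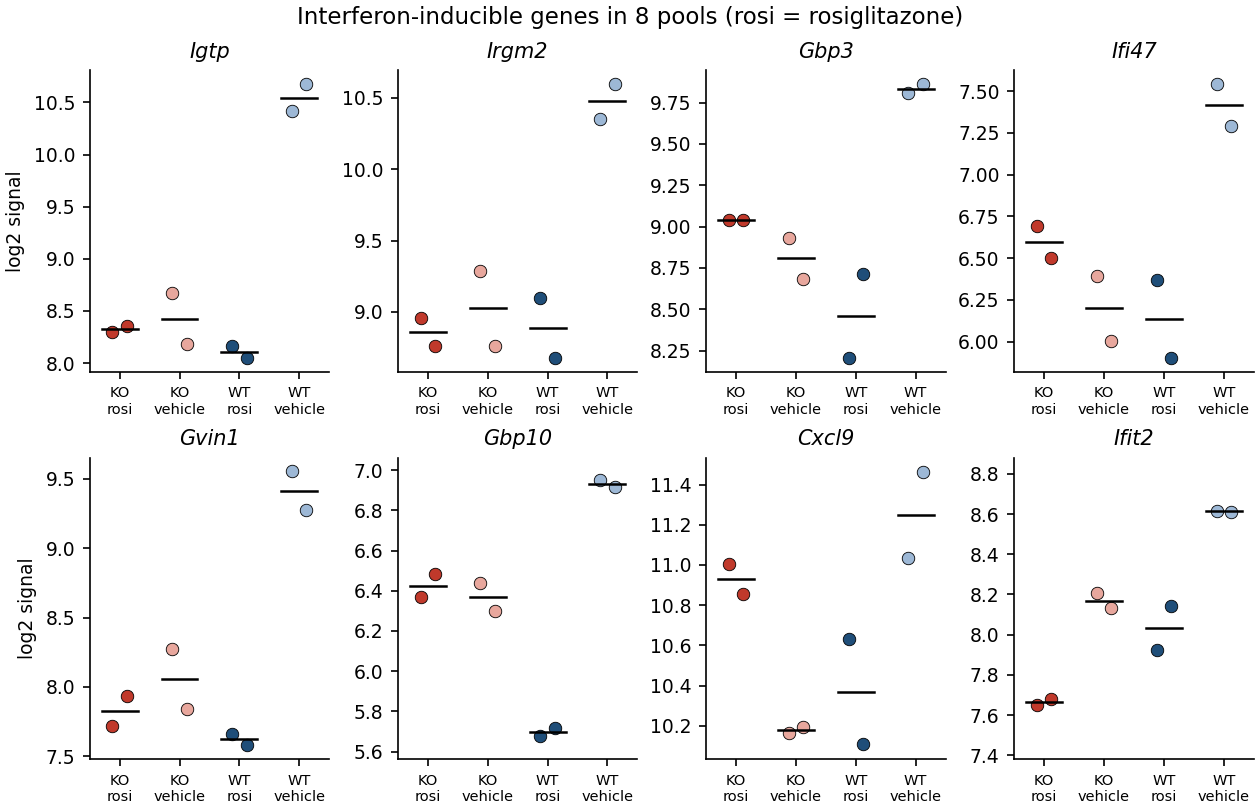
Log2 signal of 8 interferon-inducible genes in each of the 8 pools (points) with group means (lines), for KO and WT mice with rosiglitazone or vehicle. For Igtp, Irgm2, Gbp3, Ifi47, Gvin1 and Gbp10 both WT vehicle pools lie above all 6 other pools, Cxcl9 is higher with the drug in KO and lower in WT, and the Ifit2 probe drawn is lower with the drug in both.

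Gained responses, which met the rule in KO fat and not in WT fat, included several genes of the PPARG programme. Cyp4b1, a fatty acid hydroxylase of the cytochrome P450 family, stood at 11.45 and 11.78 in KO rosiglitazone and 10.49 and 10.53 in KO vehicle, against 10.81 and 10.93 in WT rosiglitazone and 11.12 and 11.14 in WT vehicle. The drug-treated KO pools were the highest and the KO vehicle pools the lowest of the 8. Its responses were 1.11 in KO (2.15-fold) and -0.26 in WT, a difference of 1.37 (SE 0.21, 95% interval 0.86 to 1.88, adjusted p = 0.649).

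Rbp7, a retinol-binding protein of fat and its endothelium, had 13.98 and 14.41 in KO rosiglitazone and 12.84 and 13.01 in KO vehicle, against 13.73 and 13.61 in WT rosiglitazone and 13.73 and 13.79 in WT vehicle. The difference was 1.36 (SE 0.25, adjusted p = 0.811). Gpr182, a receptor of endothelial cells, had nearly the same pattern, at 8.11 and 8.50, 6.99 and 7.12, 7.69 and 7.52, and 7.82 and 7.75 in the same order of groups, and a difference of 1.43 (SE 0.24). For all 3 of these genes KO vehicle fat lay below WT vehicle fat, by -0.62 for Cyp4b1, -0.83 for Rbp7 and -0.73 for Gpr182.

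The fatty acid transporter Slc27a1 had no such gap with vehicle. It stood at 12.09 and 12.36 in KO rosiglitazone and 11.21 and 11.02 in KO vehicle, against 11.36 and 11.04 in WT rosiglitazone and 10.88 and 11.10 in WT vehicle. Its difference was 0.90 (SE 0.26), and the gap between genotypes was 1.02 with rosiglitazone and 0.12 with vehicle. The lipid droplet protein Plin2 differed by 0.60 (SE 0.19), with responses of 0.61 in KO and 0.01 in WT, and Pdk4, a kinase that spares glucose, by 0.85 (SE 0.34), with 0.69 and -0.16. Pdk4 was picked after its values were seen.

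Of the 29 PPARG targets of adipocytes tested, 4 were gained with a higher level in drug-treated KO fat, against 94 of all 9543 genes (0.985%), and 1 was shared with a higher level (0.356% of all genes). The median response was 0.20 in KO and 0.01 in WT. The median difference was 0.23, and 22 of 29 differences were positive, against 44.3% of all genes. At an unadjusted p under 0.05, 5 were positive and 0 negative, against 1.90% and 2.89% of all genes. The list was not uniform. Pparg itself, by its brightest probe, had responses of -0.20 in KO and -0.21 in WT, a difference of 0.02 (95% interval -0.59 to 0.62) whose sign turned under several alternatives, median scaling among them. The other Pparg probes differed by 1.420 (SE 1.18) and 1.505 (SE 1.28), with WT rosiglitazone pool 1 apart from pool 2, at 6.92 against 9.94 and 5.22 against 8.50. Cidec differed by 0.07 (95% interval -0.35 to 0.49), the glycerol channel Aqp7 by 0.59 (its other probes by 0.85 to 2.05), adiponectin (Adipoq) by 0.38 and the insulin-responsive glucose transporter Slc2a4 by 0.85 (SE 0.47). Resistin (Retn) had the larger response in WT, at 0.49 in KO and 0.79 in WT.

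Genes of fatty acid oxidation and respiration had small differences in the same direction. Of 24 beta-oxidation genes 19 were positive, against 44.3% of all genes, with a median of 0.24. Gained with a higher level in drug-treated KO fat were 2 (0.985% of all genes). A further 2 were lost, Acot1 with a higher level in drug-treated WT fat (2.69% of all genes) and the thiolase Acaa2 with a lower one (3.08%). Acadl, a mitochondrial acyl-CoA dehydrogenase, differed by 1.03 (SE 0.42) and by 0.42 with a second probe. The acylcarnitine carrier Slc25a20 differed by 0.57 (SE 0.24). A dimmer Slc25a20 probe was opposite and differed by 1.35 (SE 0.56), with 7.92 and 9.24 in the WT rosiglitazone pools. Of 67 oxidative phosphorylation genes, 67 were higher with the drug in KO and 47 in WT, against 49.0% and 55.5% of all genes, and 52 differences were positive with a median of 0.13. That median was 0.02 without WT rosiglitazone replicate 2 and 0.03 with median scaling. Atp5o, a subunit of ATP synthase, differed by 0.66 (SE 0.21), and Cox6b1, of cytochrome oxidase, by 0.41 (SE 0.19). The 13 brown and beige adipocyte genes had a median of 0.03, and their best known member Ucp1, the uncoupling protein, had responses of 0.75 in KO and 0.44 in WT with a difference of 0.31 (95% interval -0.95 to 1.57).

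Other gained genes lay outside these lists. Capzb, an actin-capping protein, had 10.34 and 10.35 in KO rosiglitazone and 9.64 and 9.66 in KO vehicle, against 8.79 and 8.97 in WT rosiglitazone and 9.21 and 9.23 in WT vehicle, a difference of 1.03 (SE 0.18). The other Capzb probes, both brighter, differed by 0.57 and 0.34. The matrix protein Svep1 differed by 1.55 (SE 0.43), with responses of 1.04 in KO and -0.51 in WT. The protein kinase inhibitor Pkig differed by 2.00 (SE 0.79), with responses of 1.03 in KO and -0.97 in WT. Part of each difference thus came from WT, and the WT rosiglitazone pools of Pkig were 5.56 and 7.06. The brighter Pkig probe differed by 0.20 (SE 0.33), so the probes disagree. Usp50 was detected on 4 of 4 arrays in KO with rosiglitazone and on 0 of 4 in each other group, so it entered only through that group. Its response in KO is a bound, at least 1.44-fold. That bound takes, for an array where a probe was not detected, the lowest signal detected on the array.

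Acot1, a cytosolic thioesterase that splits fatty acyl-CoA and a known target of PPAR receptors, was lost with a higher level in drug-treated WT fat. It had 6.40 and 6.33 in KO rosiglitazone and 6.52 and 7.11 in KO vehicle, against 8.67 and 9.21 in WT rosiglitazone and 6.53 and 6.82 in WT vehicle. The WT rosiglitazone pools stood alone above the other 6. Responses were -0.45 in KO and 2.27 in WT (4.81-fold), a difference of -2.71 (SE 0.37, 95% interval -3.60 to -1.83, adjusted p = 0.502). A second, dimmer Acot1 probe differed by -0.59 (SE 0.80).

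Prkag2, a regulatory subunit of AMP-activated protein kinase, had 5.23 and 5.29 in KO rosiglitazone and 5.65 and 5.34 in KO vehicle, against 7.51 and 6.90 in WT rosiglitazone and 5.12 and 5.17 in WT vehicle. It was detected on all 4 arrays of WT with rosiglitazone, on 2 arrays of KO with vehicle and on none of the others. Its WT response was therefore at least 3.001-fold, and the fitted difference of -2.29 (SE 0.31, adjusted p = 0.502) rests in part on values below background. Sct, the hormone secretin, was detected on every array and differed by -1.43 (SE 0.22, adjusted p = 0.649), at 6.54 and 6.19 in KO rosiglitazone, 6.66 and 6.62 in KO vehicle, 7.95 and 8.11 in WT rosiglitazone and 6.83 and 6.90 in WT vehicle. The fitted differences of Clip4 and Tspoap1 were -1.64 (SE 0.22) and -2.06 (SE 0.32), with no array detected in KO with rosiglitazone.

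Genes of fatty acid synthesis differed in the direction opposite to the PPARG targets. Elovl6, which elongates newly made fatty acids, was opposite, at 7.43 and 7.22 in KO rosiglitazone and 8.37 and 8.01 in KO vehicle, against 8.85 and 8.27 in WT rosiglitazone and 8.13 and 7.90 in WT vehicle. Responses were -0.87 in KO and 0.55 in WT, a difference of -1.41 (SE 0.33, adjusted p = 0.827). The desaturase Fads1 was opposite as well, with responses of -0.57 and 0.59 and a difference of -1.17 (SE 0.40), and its partner Fads2 was lost, with -0.23 and 1.95. Both desaturases were picked after their values were seen, and their WT rosiglitazone pools were unequal, at 13.43 and 12.55 for Fads1 and 8.68 and 6.70 for Fads2.

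Of 20 fatty acid and triglyceride synthesis genes, 2 were lost with a higher level in drug-treated WT fat (2.69% of all genes). Lost with a lower level was 1 (3.08% of all genes), and 2 were opposite (0.377%). The median difference was -0.30, with 5 of 20 positive, against 44.3% of all genes. At an unadjusted p under 0.05, 4 were negative and 0 positive, against 2.89% and 1.90% of all genes. Fatty acid synthase (Fasn) had responses of 0.17 in KO and 0.90 in WT, and Thrsp, a lipogenic regulator, of -0.42 and 0.19. With vehicle KO minus WT was 0.57 for Fasn and 0.63 for Thrsp, and with rosiglitazone -0.17 and 0.02. For Elovl6 these gaps were 0.18 and -1.24. With vehicle 4 of the 20 genes were lower in KO, against 51.6% of all genes. Without WT rosiglitazone replicate 1 the median difference of responses was -0.13, and without KO vehicle replicate 1 it was -0.15.

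**Figure D3:**
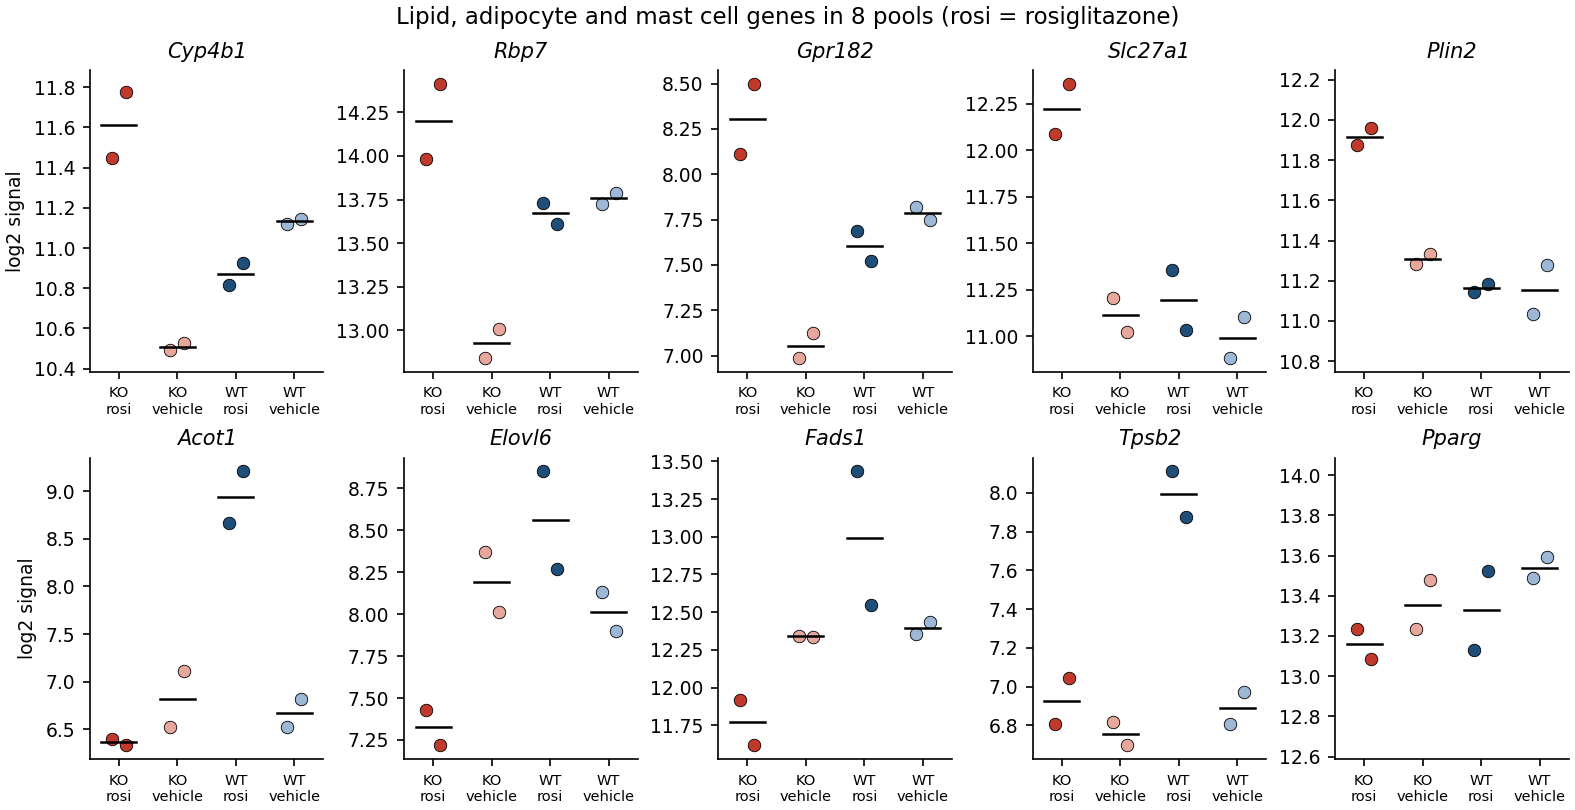
Log2 signal of 10 genes of lipid metabolism, adipocytes and mast cells in each of the 8 pools (points) with group means (lines). Cyp4b1, Rbp7, Gpr182, Slc27a1 and Plin2 are highest in both drug-treated KO pools, Acot1 and Tpsb2 in both drug-treated WT pools, Elovl6 and Fads1 lowest in drug-treated KO pools, and the Pparg probe drawn has a difference of 0.02.

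Mast cell genes were higher with rosiglitazone in WT fat by more than in KO fat. Tpsb2, a mast cell tryptase, stood at 6.81 and 7.05 in KO rosiglitazone and 6.82 and 6.70 in KO vehicle, against 8.11 and 7.88 in WT rosiglitazone and 6.81 and 6.97 in WT vehicle. The difference was -0.94 (SE 0.22, adjusted p = 0.827), and that of the chymase Mcpt4 was -0.63 (SE 0.19). All 8 mast cell genes tested had negative differences, where 44.3% of all genes were positive. Their median was -0.63, and 4 were lost with a higher level in drug-treated WT fat, against 2.69% of all genes. In whole tissue, more cells of a type and more RNA per cell cannot be told apart. The macrophage marker Aif1 was lost with a lower level in drug-treated WT fat (KO -0.06, WT -0.69) but not by a second probe (KO -0.09, WT -0.25), Fcgr3, a macrophage Fc receptor, had responses of 0.15 and -0.32, and the T cell gene Cd3e was gained with a lower level in drug-treated KO fat at a dim signal of 5.05 to 6.15. Among adipokines, Rbp4 had responses of -0.29 in KO and 0.40 in WT. The clock gene Arntl had -0.25 and 0.38.

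The largest fitted differences belonged to genes that were high in the drug-treated WT pools, often more in one pool than in the other. Wfdc15b and Esrp1, an epithelial splicing factor, together with Rbfox3, Kcnk1 and Mia, were detected on 0 of 4 arrays in KO with rosiglitazone and on 4 of 4 in WT with rosiglitazone. Drug-treated WT fat exceeded drug-treated KO fat by at least 20.8-fold for Wfdc15b, 17.1-fold for Rbfox3, 15.8-fold for Kcnk1, 8.92-fold for Esrp1 and 7.05-fold for Mia. Within the WT rosiglitazone group Wfdc15b was 12.003 in pool 1 and 8.10 in pool 2. The scaffold protein Pdzk1, in the opposite class, was 10.25 and 10.19 in those pools, 4.78 and 8.05 in WT with vehicle, and detected on 0 of 4 arrays in KO with rosiglitazone and 2 of 4 in KO with vehicle. Its KO response and its class thus rest on values below background.

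The marker lists of other cell types moved with these genes. The epithelium list (11 genes) had pool levels, as the median log2 distance from each gene's mean, of 1.33 and 0.80 in WT rosiglitazone and between -1.19 and 0.04 in the other 6 pools. All 11 of its differences were negative, with a median of -1.57 that was -1.29 without WT rosiglitazone replicate 1. Keratins 8 and 18, the pair of simple epithelia and mesothelium, were opposite: Krt8 differed by -1.77 (SE 0.42) and Krt18 by -2.47 (SE 0.72). Krt18 was detected on 1 of 4 arrays in KO with rosiglitazone. The smooth muscle list (12 genes) stood at 2.03 in WT rosiglitazone pool 1 and -0.06 in pool 2, and its median difference of -1.37 was -0.29 without pool 1. Acta2, smooth muscle actin, had 15.78 and 13.98 in those pools, and Myh11, smooth muscle myosin, 12.50 and 9.55. The 13 mesothelium markers stood at -1.04 in KO rosiglitazone pool 2, had a median difference of -0.34, and held 3 opposite genes, against 36 of all 9543 (0.377%). These were Krt8, Krt18 and Krt19, which the epithelium list holds too. The ciliated cell list stood at 1.13 in WT rosiglitazone pool 2, with Rsph1, a ciliary protein, at 8.001 and 9.428 in pools 1 and 2. The part of these cells in the lost class was not tested.

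Other opposite genes were lower with the drug in KO and higher in WT. Faah, which breaks down endocannabinoids, had 5.57 and 5.08 in KO rosiglitazone and 6.32 and 7.37 in KO vehicle, against 8.24 and 7.73 in WT rosiglitazone and 6.41 and 7.07 in WT vehicle, a difference of -2.77 (SE 0.57, adjusted p = 0.827). Faah was detected on 1 of 4 arrays in KO with rosiglitazone, so that difference rests in part on values below background. Espn, an actin-bundling protein, differed by -1.87 (SE 0.31, adjusted p = 0.746), as did Ociad2 by -1.87 (SE 0.31), and Nudt11 by -2.74 (SE 0.83). Oscp1 was gained with a lower level in drug-treated KO fat, at -0.97 (SE 0.17). The thioesterase Acot11 was lost, at -0.97 (SE 0.30), and a second probe differed by -0.29. In the other direction, Jph1, a junctional membrane protein, differed by 1.80 (SE 0.55), AA467197 by 1.48 (SE 0.37), Rprd2 by 1.30 (SE 0.36) and Klk1b27 by 1.31 (SE 0.38). In WT with rosiglitazone, Klk1b27 was detected on no array, Rprd2 on 1 of 4 and Jph1 on 2 of 4.

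Several gained responses with a lower level in drug-treated KO fat sat with KO vehicle pool 2. The liver list (14 genes) stood at 2.996 in that pool and between -1.34 and 0.96 in the other 7, and its median difference of -2.18 was -0.20 without it. Serpina1c, a serine protease inhibitor made by liver, was 5.70 and 9.03 in the KO vehicle pools, and its relative Serpina1a 7.07 and 7.87. The liver carrier Slc25a47 had 6.59 and 8.26 in those pools, the oxysterol hydroxylase Cyp7b1 7.31 and 8.94, Bbox1, which completes carnitine synthesis, 5.15 and 7.73, the neuronal growth protein Nrn1 5.65 and 8.08, and the opposite gene Aqp9, a glycerol channel of liver, 7.46 and 8.94. Slc22a18, an organic cation transporter, did not follow that pool alone, with 6.36 and 6.23 in KO rosiglitazone and 7.30 and 7.86 in KO vehicle, against 8.01 and 7.84 in WT rosiglitazone and 7.76 and 7.88 in WT vehicle. Its difference was -1.39 (SE 0.29, adjusted p = 0.827). Nrn1 had responses of -1.43 in KO and 1.40 in WT, so its difference came from both genotypes.

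**Figure D4:**
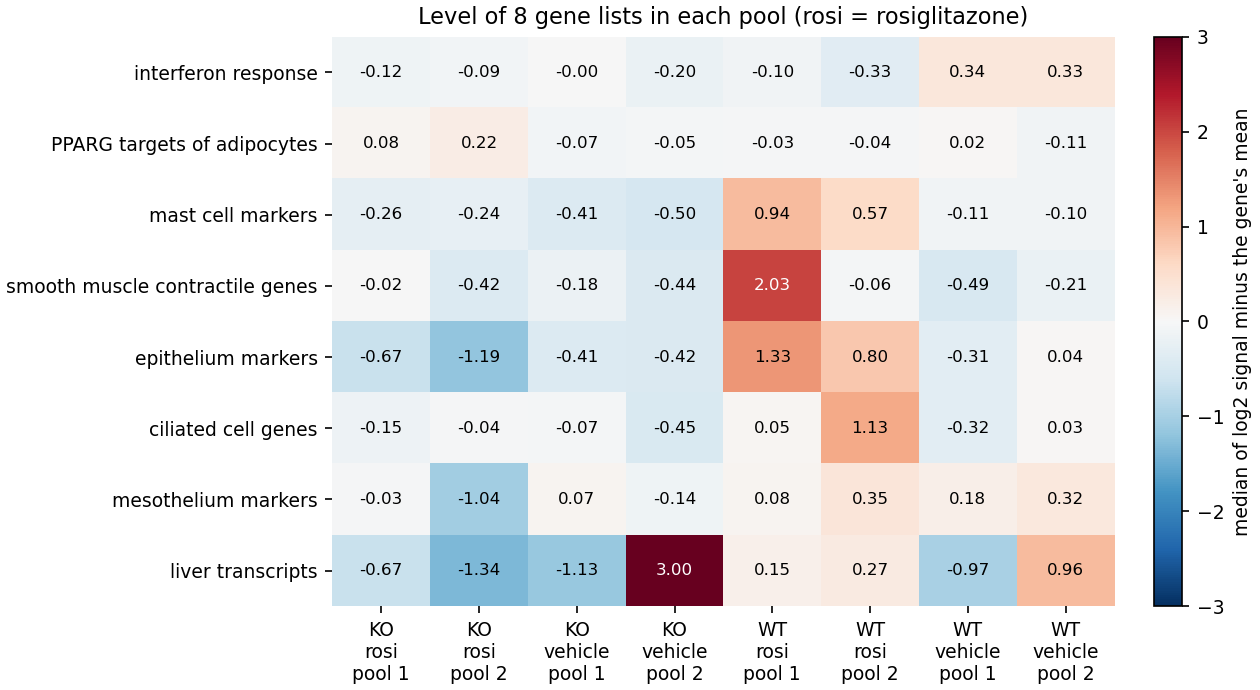
Level of 8 gene lists in each pool, as the median over a list's genes of log2 signal minus the gene's mean over the 8 pools, with KO pools left of WT pools. The interferon list is highest in both WT vehicle pools (0.34 and 0.33), the smooth muscle list in WT rosiglitazone pool 1 (2.03) and the liver list in KO vehicle pool 2 (2.996).

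The shared responses were modest in size. Isl1, a LIM homeobox factor, was lower with the drug in both genotypes, at 5.89 and 6.10 in KO rosiglitazone and 6.89 and 6.96 in KO vehicle, against 7.005 and 6.952 in WT rosiglitazone and 7.57 in both WT vehicle pools. Responses were -0.93 in KO and -0.59 in WT. Prex1, an exchange factor for Rac, had responses of -0.58 in KO and -0.67 in WT, and the actin-binding Ablim3 of -0.72 and -0.92. A brighter Ablim3 probe had -0.11 and -0.68 and was not shared. AB124611 and Ctdspl2 were detected on no array in KO with rosiglitazone, where their lower level is a bound, at least 1.34-fold and 1.25-fold. A second Ctdspl2 probe had -0.16 in KO and -0.66 in WT.

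Of the shared genes with a higher level, Chrna2, a nicotinic receptor subunit, stood at 7.13 and 7.61 in KO rosiglitazone and 6.01 and 6.20 in KO vehicle, against 7.36 and 6.86 in WT rosiglitazone and 6.06 and 6.47 in WT vehicle. Its responses were 1.27 in KO and 0.85 in WT. Pcbd1, an enzyme of tetrahydrobiopterin recycling, had 0.72 and 1.23, Fkbp2, a prolyl isomerase of the endoplasmic reticulum, 0.81 and 0.79 by a dim probe, and Vwa3a 0.93 and 0.65. The brighter Fkbp2 probe had 0.31 in KO and -0.28 in WT, a difference of 0.58 (SE 0.35), and was not shared. The difference of responses had 95% intervals of -0.44 to 1.28 for Chrna2 and -0.65 to 0.68 for the dim Fkbp2 probe, so a difference of up to those sizes was not detectable with these pools. Rspo3, a Wnt enhancer, and the coronin Coro2b were below background on every array of a vehicle group, and their WT responses were at least 1.57-fold and 1.11-fold. A second Coro2b probe was gained, with 0.70 in KO and 0.18 in WT.

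**Figure D5:**
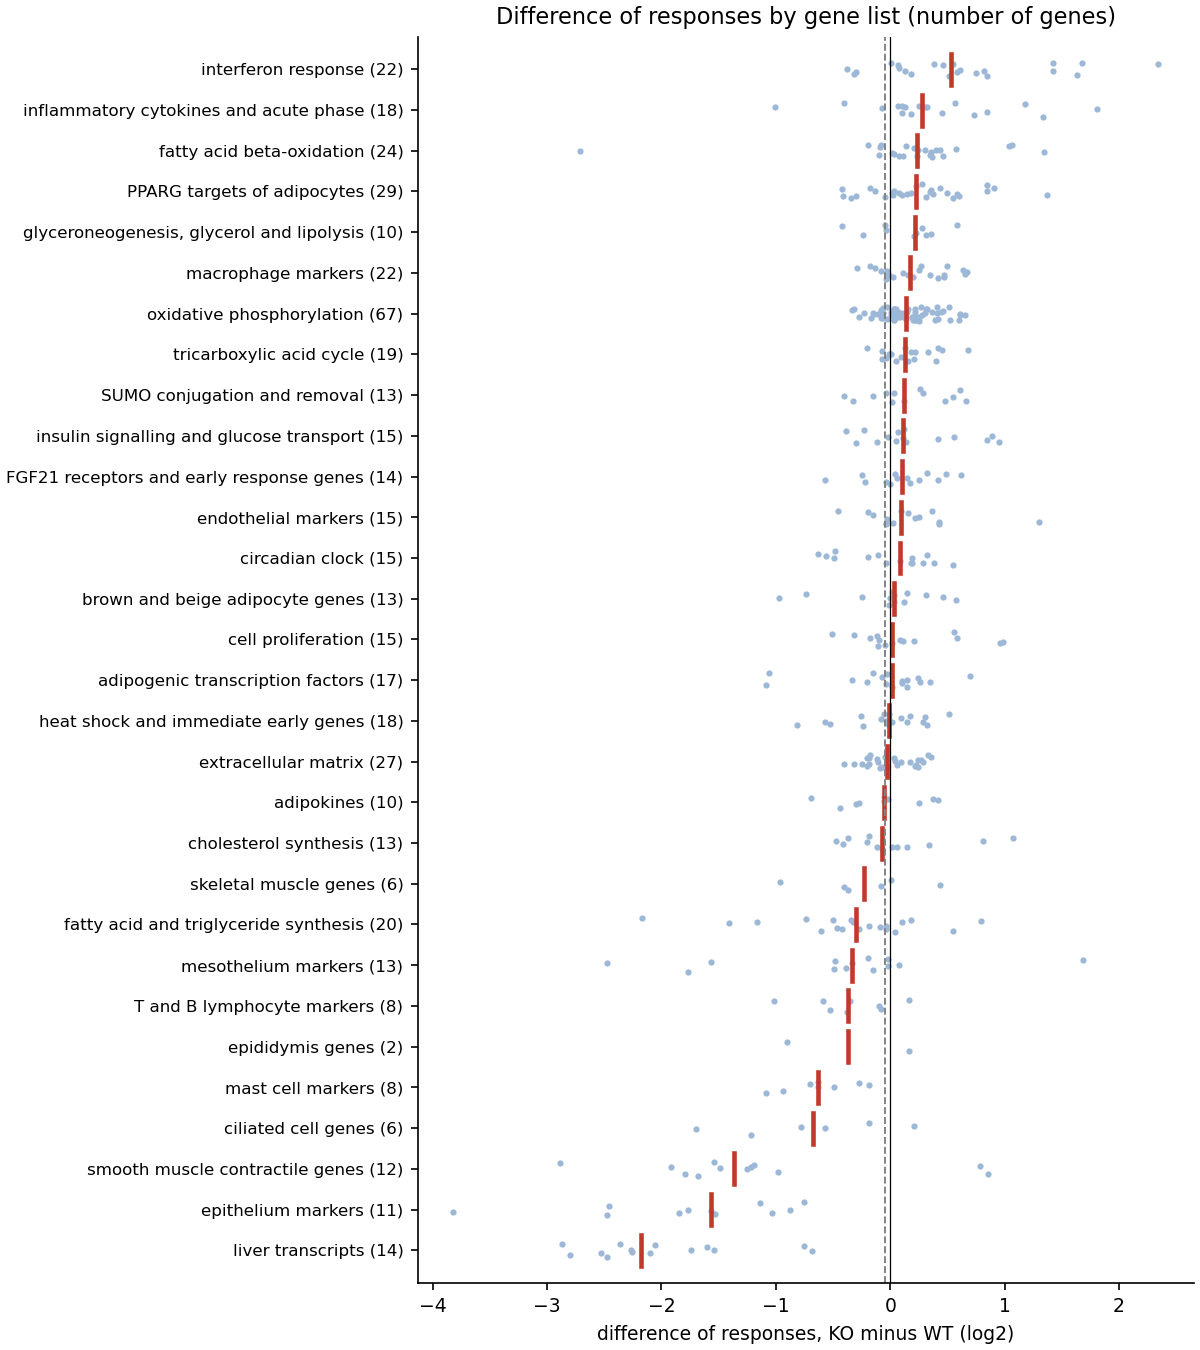
Difference of responses (KO minus WT, log2) for each gene of 30 lists (points, 1 probe per gene), with the list's median (red bar), the median of all genes (dashed line, -0.04) and the number of genes in brackets. The interferon list has the highest median (0.53) and the liver, epithelium and smooth muscle lists the lowest (-2.18, -1.57 and -1.37).

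The other probes of a gene did not always share its sign. Of 684 other probes of lost genes, 68.7% had the same sign of difference, as did 76.7% of 176 for gained genes, 68.9% of 45 for shared genes and all 11 for opposite genes. The authors' deposited table of their own comparisons made its calls at a Bonferroni threshold on their own p-values. Its counts are therefore not comparable with those of the fit used here. It called 309 probes for rosiglitazone in KO and 485 in WT. Of 30 called in both, 18 had the same direction and 12 opposite directions. In the authors' deposited table the ratio of rosiglitazone over vehicle was 0.949 in KO and 0.269 in WT for Igtp, 2.02 and 0.953 for Cyp4b1, 0.904 and 2.99 for Acot1, and 1.57 and 0.653 for Cxcl9. That table has no test of the difference itself.

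The lists closest to FGF21 signalling had small positive medians, against -0.04 over all genes. The 14 FGF21 receptor and early response genes had a median difference of 0.10 with 9 positive, against 44.3% of all genes. Klb, which encodes beta-klotho, had responses of 0.27 in KO and -0.14 in WT (difference 0.42, 95% interval -0.21 to 1.04). The 13 genes of SUMO conjugation and removal, a modification known to inhibit PPARG, had a median of 0.12 with 9 positive. The remaining lists had medians between -0.67 and 0.22, with Lipe, hormone-sensitive lipase, at -0.16 in KO and -0.52 in WT (0.03 and 0.46 by a dimmer probe) and the eotaxin gene Ccl11 at 0.36 and -0.82.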

How the data were processed

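Per the file headers, the non-normalized values deposited are mean bead intensity (linear), bead number and detection p-value of every probe on every array. The normalized table of the authors, deposited as linear intensity and repeated in the series matrix, served as an alternative. Their deposited statistics table holds ratios of group means with p-values. Left out were 64 columns (bead standard errors, and measures the normalized table repeats). Raw signals were background-corrected with nec (limma 3.58.1, R 4.3.3, offset 16), then quantile normalized as log2 values computed from the deposited signals, and the 2 arrays of each pool were averaged. Kept were probes detected (p up to 0.05) on 4 arrays or more: 13759, for 9543 genes, 789 lacking a symbol. Of 25697 probes, 23978 carried 1 gene symbol and the rest none; 23962 were matched by Entrez ID to RefSeq (GRCm38.p6). limma fitted 4 group means (4 residual and 2.75 prior degrees of freedom, two-sided, Benjamini-Hochberg over all probes). In lists a gene stood by its brightest probe. The fit was tested on simulated data.

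Named genes were the 6 per class and direction whose size stayed largest over 8 fits leaving out 1 pool, 8 each way by smallest p for the difference, 2 per list by smallest p and a panel, some omitted for brevity. Members, lists and alternatives were chosen with earlier results of these data known. The sources used here do not say how mice were assigned to pools, and p-values measure the spread between pools of 2 mice.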

Additional observations from a re-analysis of the deposited data

Results flagged for a closer look

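For 16 of the named genes the drug-treated pools lay wholly above the vehicle pools in one genotype and wholly below them in the other. Most of these were named because the naming rule takes genes from the opposite class, so the count follows in part from that rule. Of all 13759 probes tested, 43 were opposite (0.313%). Higher with rosiglitazone in KO and lower in WT were AA467197 with a difference of responses of 1.48 (log2, KO minus WT), Ccl8 with 1.81, Cxcl9 with 1.63, Jph1 with 1.80, Klk1b27 with 1.31 and Rprd2 with 1.30. Lower in KO and higher in WT were Aqp9 with -2.79, Elovl6 with -1.41, Espn with -1.87, Faah with -2.77, Fads1 with -1.17, Krt18 with -2.47, Krt8 with -1.77, Nudt11 with -2.74, Ociad2 with -1.87 and Pdzk1 with -4.61. For Pdzk1 the lower level in KO rests on values below background, with detection on 0 of 4 KO rosiglitazone arrays and 2 of 4 KO vehicle arrays. Detection was low for others too. Faah and Krt18 were detected on 1 of 4 arrays in KO with rosiglitazone, and Espn on 2. Jph1 was detected on 2 of 4 arrays in WT with rosiglitazone, Rprd2 on 1 and Klk1b27 on 0. In KO with vehicle, Rprd2 and Klk1b27 were detected on 1 of 4. For Ccl8 the higher WT rosiglitazone pool (8.440) lay just under the lower WT vehicle pool (8.445). None of these passed limma's test of the difference, with adjusted p from 0.746 to 0.827 over the 16. Groups of 2 pools were too small for a check of single pools that stand apart.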

How the results depend on the processing

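No setting other than the fit without WT rosiglitazone replicate 2 gave a probe past adjusted p 0.05 for the difference of responses: over the fits leaving out 1 pool the count was 0 to 1702, and the lone remaining pool of a group was assumed to vary like the others. At an unadjusted p under 0.05 those fits gave 432 to 3932 probes, and without a filter on dim probes there were 1310. Leaving out 1 pool gave 512 to 3239 lost, 277 to 718 gained, 79 to 166 shared and 39 to 108 opposite probes. Class counts depended on the handling of dim signal: lost, gained, shared and opposite probes numbered 322, 101, 3 and 6 without background correction, 322, 103, 4 and 6 in the authors' deposited normalized table, 592, 183, 17 and 18 with a background offset of 50, and 512, 184, 28 and 19 over probes detected on all 16 arrays. They numbered 1758, 1090, 393 and 173 at a size limit of 0.3, and 210, 50, 0 and 3 at a limit of 1.0. Arrays A alone gave 613 gained and 80 opposite probes, arrays B alone 201 shared and 72 opposite probes, and without the pools WT rosiglitazone 1 and KO vehicle 2 there were 502 lost probes. The cause of these shifts was not tested.

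Of 106 named values, 102 kept their sign under every alternative. Many of these genes were named for a size that stayed large over the fits leaving out 1 pool, or for a small p. Their kept sign thus followed in part from the naming rule. Pparg (0.02) was -0.10 with median scaling, -0.13 with arrays A only, -0.059 without the pools WT rosiglitazone 1 and KO vehicle 2, and -0.18 to 0.21 leaving out 1 pool. Irgm1 (0.01) was -0.11 with median scaling, -0.025 with arrays B only and -0.12 to 0.14 leaving out 1 pool. Cidec (0.07) was -0.14 with arrays B only, and Ucp1 (0.31) was -0.22 to 0.84 leaving out 1 pool. With the replicate number as a block, 0 probes passed and 752 had an unadjusted p under 0.05. Same-numbered pools of different groups correlated by -0.10 to 0.27, so the numbers were not taken to pair them. The block leaves pool values and fitted differences as they were, so it could not change a class count. With 2 pools a group, and dim probes near background, small differences were not detectable.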
